A study of Homo sapiens with 8 samples.

Results

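Human embryonic stem cells of the line H9 were compared with the KDR and CD31 positive cells sorted from them at day 6 of differentiation toward blood. The comparison used 4 of the 8 expression arrays of the series, chosen by their titles: 2 of undifferentiated, unsorted cells at day 0 and 2 of sorted cells at day 6. The other 4 arrays, of cells sorted in the same way at day 4 and day 8, entered the estimate of the spread and were used to place the day 6 arrays. All groups came from the established line H9, which the growth protocol describes as kept on feeder layers of mouse embryonic fibroblasts that had been stopped from dividing. The day 0 cells are labelled undifferentiated, although 1 treatment text, on differentiation, is attached to all samples. By that text the day 6 cells had differentiated in serum-free StemPro34 medium with BMP-4, Glutamax and monothioglycerol among its additions, and had been sorted by flow cytometry for both surface proteins. Day and sorting therefore changed together, and their parts in a difference from day 0 cannot be told apart.

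KDR is a receptor for vascular endothelial growth factor (VEGF) that marks the mesoderm from which blood and vessels arise. CD31, the product of PECAM1, is an adhesion protein of endothelium and of several blood cells. In the early embryo the first blood cells and the first endothelium appear side by side, and factors such as TAL1, LMO2, GATA2 and the ETS family act in both. Embryonic stem cells are held in the undifferentiated state by NANOG, SOX2 and their partners, and grow as a tight epithelium joined by E-cadherin.

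The labels disagree on 1 of the 4 arrays. For replicate 2 of day 6 the source name gives day 4, while its title, its description and its stage give day 6, and it was used as day 6. The labels call the arrays biological replicates but do not say that they came from separate cultures, so p-values measure the spread between arrays. That spread was pooled over all groups of the series, the other sorted days included, as if equal in each. The pairs were not equally close, correlating across genes at 0.997 for day 0 and 0.937 for day 6. The pooled spread can therefore understate that of day 6, and its part in the calls was not tested. Medians of the intensities lay between 88.8 and 93.1 on the 4 arrays. The ratio of 3′ to 5′ probe set intensities, a sign of how intact the RNA was, differed between the groups. For the actin gene ACTB the day 0 arrays gave 8.92 and 10.4 and the day 6 arrays 31.0 and 16.0, and for GAPDH they gave 1.71 and 1.91, then 3.73 and 3.41. The part of these ratios in the results was not tested. In RNA from many cells, fewer cells of a type and less RNA per cell cannot be told apart.

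Expression was compared for 13636 genes, those whose level passed the median of the array on 2 or more of the 8. A gene below the median on both day 0 arrays passed through sorted arrays alone and had less room to fall than to rise. Levels are given as log2(intensity + 32), on which a fold understates the change of a dim gene, and each is listed for replicates 1 and 2 of day 0 and then replicates 1 and 2 of day 6. A gene is said to have risen or fallen where limma, with Benjamini-Hochberg adjustment over all genes tested, gave an adjusted p under 0.05. At day 6, 1328 genes were higher (9.74% of those tested) and 1859 were lower (13.6%), together 23.4%. The counts of each gene list below are to be read beside these shares. Of the genes tested 6.25% rose and 8.46% fell by at least 2-fold. The arrays of the groups did not overlap for 65.8% of the genes tested, so that the lack of overlap alone marks most genes. These counts leaned on having both day 0 arrays. Without replicate 1 of day 0, 466 genes were higher and 739 lower, and without replicate 2 of day 0, 463 were higher and 749 lower.

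The largest rises were those of endothelial and blood-forming genes. CDH5, the cadherin of endothelial junctions, read 5.73, 5.69, 12.23 and 13.26, a rise of 131-fold (log2 change 7.04 ± 0.40 SE, n = 2 arrays a group, adjusted p = 5.79e-05). RASGRP3, a Ras activator of endothelium and B cells, read 6.28, 6.24, 12.96 and 13.01 and rose 105-fold (log2 change 6.72 ± 0.15 SE, adjusted p = 2.69e-06). Both genes were low on both day 0 arrays and high on both day 6 arrays, with RASGRP3 nearly equal on the day 6 pair and CDH5 higher on replicate 2. Behind them came the surface receptor CD93 at 94.4-fold, the matrix protein gene MMRN2 at 93.0-fold, PECAM1 at 89.3-fold, the WNT antagonist SOST at 77.3-fold and the transcription factors ERG (73.0-fold), SOX7 (71.7-fold), TAL1 (65.3-fold) and FLI1 (60.2-fold). SAMSN1, a signalling adaptor of blood cells, rose 59.3-fold, and PTPRB, the phosphatase that restrains the angiopoietin receptor, 48.3-fold. Both day 0 arrays had 10 of these 12 genes below their median, so their folds rest on dim day 0 values. PECAM1 encodes a protein the cells were sorted for, and its rise is a check of the sort and not a finding.

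Of the 12 largest falls, SOX2, L1TD1 and NANOG are in the pluripotency list, and the others belong to epithelial, neural and retinoic acid lists or to none. SOX2, a core factor of the undifferentiated state, read 12.90, 12.92, 6.90 and 6.39 and fell 76.7-fold (log2 change -6.26 ± 0.93 SE, adjusted p = 0.00395). L1TD1, an RNA-binding protein of embryonic stem cells, fell 73.0-fold and APELA, a secreted peptide hormone of these cells, 67.4-fold. CFAP95 fell 56.6-fold, CYP26A1, which breaks down retinoic acid, 55.7-fold, the epithelial splicing factor ESRP1 48.9-fold, ZIC2 44.3-fold, CDH1 (E-cadherin) 42.8-fold and NANOG 40.6-fold. IDO1, a tryptophan-degrading enzyme, fell 39.1-fold and the receptor phosphatase PTPRZ1 38.1-fold. The probe set listed as MIR302B was also among the 12. Day 0 arrays agreed closely for all the genes named here, while 5 of the 12 had both day 6 values below the median of the array. None of the largest rises and falls lost its call when any array was left out.

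**Figure D1:**
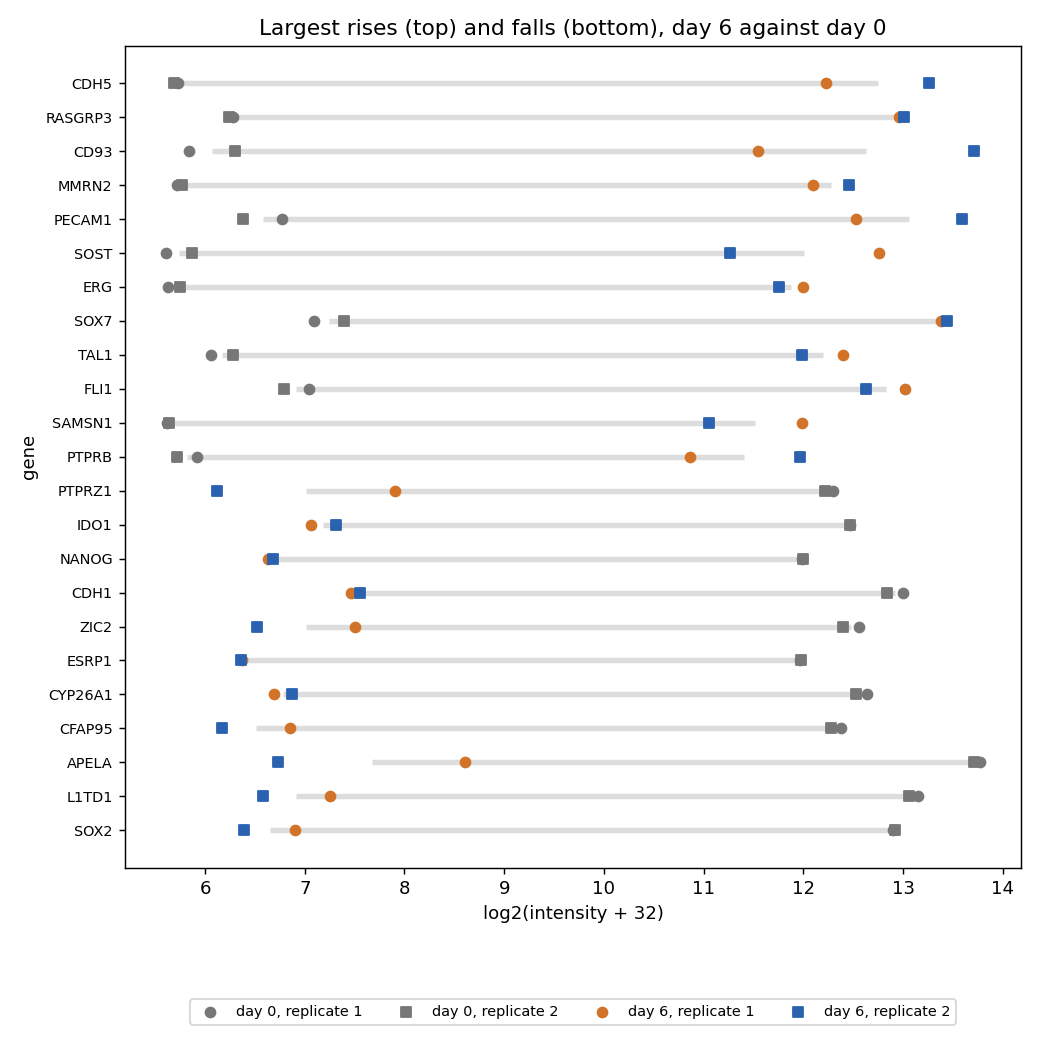
Levels of the genes with the largest rises and falls on each of the 4 arrays, with the level as log2(intensity + 32) on the horizontal axis and 1 gene a row; grey bars join the group means, and the probe set listed as MIR302B is not drawn. Day 0 (grey) and day 6 (orange and blue) arrays lie far apart in every row, and the day 6 arrays differ most from each other for CD93 (11.55 and 13.71).

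The surface of endothelium gave the list with the largest median change of the 40 examined. Of 42 tested genes for endothelial junctions and surface proteins, 30 rose and 3 fell, with a median log2 change of 3.18 against -0.03 over all genes tested. Among the 30 is PECAM1, for whose protein the cells were sorted, and its rise is a check of the sort. CD93 read 5.84, 6.30, 11.55 and 13.71. MMRN2 read 5.72, 5.77, 12.10 and 12.46, and the angiopoietin receptor gene TEK 9.15, 9.01, 12.93 and 12.99, a rise of 14.8-fold (adjusted p = 9.06e-06). The groups were far apart for each of these, and the day 6 arrays nearly met for TEK but not for CD93. CD34, a sialomucin of blood progenitors and endothelium, read 7.45, 7.56, 10.08 and 12.09 and rose 12-fold (adjusted p = 0.00514). The fenestral protein gene PLVAP rose as well, as did VWF, ESAM, ROBO4, ENG and ECSCR. The 3 members that fell were the junction gene JAM2, the leukocyte ligand VCAM1 and CAV1, the coat protein of caveolae.

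A few of these members rested on 1 of the day 6 arrays. CLDN5, the claudin of endothelial tight junctions, read 7.20, 7.31, 9.07 and 12.12 and rose 10.1-fold (adjusted p = 0.0425). SELE, the endothelial selectin, ran the other way at 5.65, 5.58, 10.51 and 7.70, a rise of 11.3-fold (adjusted p = 0.0403). Each lost its call in 5 of the runs without 1 array, with adjusted p from 0.0587 to 0.184 over both genes. Among those runs, CLDN5 had 0.0694 without replicate 2 of day 6 and SELE 0.0957 without replicate 1 of day 6. Against day 0 the list's median was 2.63 on replicate 1 and 3.47 on replicate 2 of day 6. A check of the label by 5 defining markers (CDH5, TEK, TIE1, ESAM and CLDN5) gave summed intensities of 775 and 710 at day 0 and 15000 and 25800 at day 6, and all 5 rose.

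Transcription factors of endothelium and early blood rose on both day 6 arrays to a like degree. Of 40 tested, 26 rose and 1, BCL11A, fell, with a median log2 change of 2.14 (2.18 on replicate 1 and 2.21 on replicate 2). ERG, an ETS factor that maintains endothelial identity, read 5.63, 5.75, 12 and 11.76. SOX7 read 7.09, 7.39, 13.38 and 13.44. FLI1, an ETS factor of endothelium and megakaryocytes, read 7.04, 6.79, 13.02 and 12.63. For these 3 the day 6 arrays differed by no more than 1.31-fold. MEF2C, a factor of muscle and vessel development, rose 27.8-fold (adjusted p = 1.62e-05), SOX17 17.9-fold (adjusted p = 0.000461) and HHEX 12.8-fold (adjusted p = 0.000733). LMO2, LYL1, GATA2, ETS1, MECOM, MEIS1, GFI1 and KLF2 also rose. Of the 40, 4 were at least 2-fold higher on replicate 2 and 2 on replicate 1. At least 4-fold apart were SOX18, at 5.94, 5.90, 6.71 and 9.05 (adjusted p = 0.0885), and the hypoxia factor gene EPAS1, at 8.64, 8.80, 8.81 and 11.95 (adjusted p = 0.351). For EPAS1, replicate 1 of day 6 stood just above the day 0 arrays and replicate 2 far above them.

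TAL1, the basic helix-loop-helix factor needed for blood formation, read 6.06, 6.28, 12.40 and 11.99 (adjusted p = 2.4e-05). Its promoter is shown as that of a risen gene of this list, with the ETS and GATA motifs found in it marked. A link between these motifs and the rise was not tested. The window is the 250 bases before the upstream of the 2 starts that RefSeq lists for it, at chr1:47232336-47232585 on the minus strand of GRCh38.p14. Capitals mark TTCCGG, the ETS motif CCGGAA read on the other strand, which begins 165 bases before the start, and TTATCT, the GATA motif AGATAA read on the other strand, which begins 35 bases before it.
TAL1: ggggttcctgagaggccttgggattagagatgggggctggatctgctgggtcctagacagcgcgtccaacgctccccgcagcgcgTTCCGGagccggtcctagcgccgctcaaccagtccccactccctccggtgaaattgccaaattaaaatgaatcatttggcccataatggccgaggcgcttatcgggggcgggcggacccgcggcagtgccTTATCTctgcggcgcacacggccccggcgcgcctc
Both strands were searched, and the motifs share no bases here. The promoter of SOX2, which fell, was searched as well and held none of the motifs searched. Among 27305 RefSeq promoter windows of this length, 9.37% held AGATAA and 14.8% held CCGGAA on either strand. These matches describe the sequence and are no measurement of binding.

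Of 24 tested genes of VEGF and angiopoietin signalling, 10 rose and none fell, with a median log2 change of 0.75. KDR itself, a gate gene of the sort, read 9.02, 9.24, 13.55 and 13.76, and its rise, counted among the 10, is a check of the sort. PTPRB read 5.92, 5.72, 10.86 and 11.97, and the orphan angiopoietin co-receptor gene TIE1 rose 16.4-fold and the adaptor gene SH2D3C 15.1-fold (adjusted p = 0.00061 and 1.46e-05). PTPRB, TIE1 and SH2D3C were below the median on both day 0 arrays. They passed the filter through sorted arrays and had less room to fall, so the lack of falls is partly set by the filter. Of 11 venous and lymphatic genes, 6 rose and the podoplanin gene PDPN fell. APLNR, the receptor of the apelin peptides, read 7.51, 7.51, 12.71 and 12.28 and rose 31.7-fold (adjusted p = 1.12e-05). It rose while APELA, which encodes a peptide ligand of this receptor, fell. The sialomucin gene EMCN rose 30.3-fold (adjusted p = 0.000194). FLT4, a lymphatic VEGF receptor, read 6.38, 6.47, 8.13 and 10.34 (adjusted p = 0.0191) and lost its call without either day 0 array, at 0.101 and 0.111. The venous and lymphatic list had 7 calls in all, and 5 and 4 without replicates 1 and 2 of day 0. VEGFC, the ligand of FLT4, split the day 6 arrays at 8.41, 8.76, 6.94 and 10.81, with replicate 1 below and replicate 2 above both day 0 arrays.

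Of 24 tested arterial and Notch genes, 9 rose (NOTCH1, NOTCH4, JAG2, HEY1, HEY2, EFNB2, GJA4, GJA5 and NRP1) and 2, NOTCH2 and JAG1, fell. HEY1, a repressor that Notch switches on, read 9.39, 9.48, 12.67 and 13.52 and rose 12.6-fold (adjusted p = 0.00152). The Notch ligand gene JAG2 read 8.33, 8.20, 10.58 and 11.63 and rose 7.16-fold (adjusted p = 0.00138). GJA5, the connexin of arterial endothelium, read 5.89, 5.80, 8.98 and 11.39 (20.3-fold, adjusted p = 0.00863), and its relative GJA4 read 8.33, 7.84, 11.15 and 12.91 (15.4-fold, adjusted p = 0.00732). Replicate 2 of day 6 was the higher array for all 4. GJA5 and GJA4 lost their calls without a day 0 array, with adjusted p from 0.0584 to 0.0613. The list's calls went from 11 to 5 and 3 without replicates 1 and 2 of day 0.

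This list had the widest gap toward replicate 2 of all lists, with a median of 1.24 log2 units. Its median change from day 0 was 0.58 on replicate 1 and 2.40 on replicate 2 of day 6. Fitted with replicate 1 alone, 6 of its genes were higher than at day 0, and with replicate 2 alone, 14. Of the 24, 6 were at least 4-fold higher on replicate 2 and 0 were at least 4-fold higher on replicate 1. CXCR4, the chemokine receptor of arterial and definitive endoderm cells, read 8.96, 8.83, 10.58 and 13.51 (adjusted p = 0.0611). ACKR3, a decoy receptor for the same chemokine, read 9.07, 9.11, 9.04 and 12.03 (adjusted p = 0.268), and DEPP1 read 7.57, 7.83, 7.67 and 11.01 (adjusted p = 0.416). On replicate 1 of day 6, ACKR3 was at its day 0 level and DEPP1 within its day 0 range, and on replicate 2 both were far above.

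Signalling genes of blood cells were raised in part. Of 31 tested surface and signalling genes of blood progenitors, 14 rose and 2, CD44 and PROM1, fell, with a median log2 change of 0.62. SAMSN1 read 5.62, 5.64, 11.99 and 11.05. LAPTM5, a lysosomal protein of blood cells, read 6.57, 6.43, 11.45 and 12.33 and rose 42.0-fold (adjusted p = 8.12e-05). VAV1, VAV3, LCP2, RAC2, HCLS1, ARHGDIB, RHOH and CSF2RB were among the others that rose. PROM1, which encodes CD133 and is high in embryonic stem cells, read 11.28, 11.11, 6.75 and 6.85 and fell 21.1-fold. Without replicates 1 and 2 of day 0 the calls of this list went from 16 to 10 and 11.

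The GIMAP genes encode small GTPases found in lymphocytes and endothelium and lie in a cluster on the genome. Of 7 tested, 6 rose, with a median log2 change of 3.16. GIMAP8 read 5.71, 5.79, 10.43 and 11.73 (40.2-fold, adjusted p = 0.000504). GIMAP6 rose 15.2-fold, GIMAP1 11.0-fold and GIMAP4 8.94-fold. All 4 were higher on replicate 2 than on replicate 1 of day 6, and neither array overlapped day 0. On both day 0 arrays they were below the median, so they passed the filter through sorted arrays.

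Markers of single blood lineages are counted beside the 23.4% of all genes tested that were called. Of 21 tested erythroid genes, 4 rose (TAL1, KLF1, RHAG and CA2) and TFRC fell. RHAG, an ammonium channel of the red cell membrane, read 5.69, 5.64, 10.04 and 9.96 and rose 20.2-fold (adjusted p = 0.00131). The carbonic anhydrase gene CA2 rose 5.45-fold (adjusted p = 0.0222). TFRC, the transferrin receptor, read 13.36, 13.34, 12.29 and 12.03 and fell 2.29-fold (adjusted p = 0.0291), with 1 of its 3 probe sets above the filter going the other way. The embryonic globin genes HBE1 and HBZ did not pass the test. HBE1, the embryonic beta-like globin, read 7.11, 6.84, 7.59 and 11.97 (adjusted p = 0.147), and the embryonic alpha-like globin gene HBZ read 6.24, 6.05, 6.27 and 8.36 (adjusted p = 0.313). ALAS2, which starts haem synthesis in red cells, read 6.52, 6.41, 6.63 and 8.45 (adjusted p = 0.18). In these 3 genes replicate 1 of day 6 was near day 0 and replicate 2 stood above it.

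The 3 red cell markers measured were HBE1, ALAS2 and AHSP. Their summed intensity was 260 and 232 at day 0, 312 on replicate 1 and 4410 on replicate 2 of day 6. HBE1, at 11.97 on replicate 2 of day 6, made most of that last sum. AHSP stayed near day 0, at 6.97, 7.01, 6.86 and 7.05. Without replicates 1 and 2 of day 0 the erythroid list's calls went from 5 to 3 and 2. The promoter of ALAS2 is shown although ALAS2 was not called. It was highest of the 4 arrays on replicate 2 of day 6, as the globin genes were. Red cell promoters are read by GATA and CACCC-binding factors, whose part here was not tested. The window is chrX:55030978-55031227 on the minus strand of GRCh38.p14, from RefSeq, the 250 bases before the start. Capitals mark TTATCT, the GATA motif AGATAA read on the other strand, beginning 127 bases before the start, and GGGTG, the CACCC motif read on the other strand, beginning 60 and 56 bases before it.
ALAS2: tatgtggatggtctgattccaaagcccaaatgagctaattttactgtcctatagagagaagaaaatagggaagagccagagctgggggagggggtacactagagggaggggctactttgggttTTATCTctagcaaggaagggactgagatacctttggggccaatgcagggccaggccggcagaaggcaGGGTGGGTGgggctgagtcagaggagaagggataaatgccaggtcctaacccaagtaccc
The CACCC matches overlap each other by a base, and no other motif searched overlaps them. CACCC was held by 53.7% of the 27305 windows and AGATAA by 9.37%.

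Of 19 tested megakaryocyte and platelet genes, 6 rose and none fell. F2RL2, a thrombin receptor, read 9.02, 8.78, 13.47 and 13.23 and rose 21.8-fold (adjusted p = 8.27e-06). MMRN1 and VWF, which endothelium also makes, rose 14.5-fold and 9.17-fold. MMRN1 was below the median on both day 0 arrays and had less room to fall. The 3 platelet markers measured summed to 437 and 469 at day 0 and 379 and 1060 at day 6. Of 23 myeloid genes with a probe set, 9 passed the filter. Of these 9, 2 rose, LAPTM5 and the mannose receptor gene MRC1, which read 5.59, 5.90, 10.59 and 11.60 (40.8-fold, adjusted p = 0.000284). LAPTM5 and MRC1 were below the median on both day 0 arrays, so they passed the filter through sorted arrays and had less room to fall. The macrophage genes CD14 and SPI1 and the pan-leukocyte gene PTPRC did not pass the filter on low values. The macrophage markers summed to 110 and 94.2 at day 0 and 244 and 287 at day 6. That rise was mostly that of LYZ, which read 5.92, 5.76, 7.53 and 7.87 and was not called. CD14 and SPI1 stayed near their day 0 values. Of 8 lymphoid genes, 3 rose, GATA3 (5.33-fold), CD79B (2.77-fold) and EBF1 (2.25-fold), and 1 and 2 were called without replicates 1 and 2 of day 0. CD79B, EBF1, CA2 and TFRC each lost their call without at least 1 array, with adjusted p from 0.0521 to 0.157. CD79B and CA2 did so without replicate 1 of day 6 and TFRC and CA2 without replicate 2. RUNX1, a factor of the first blood stem cells, and the fetal and alpha globins were not analysed here, since their probe sets carry several gene symbols.

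The network of the undifferentiated state was reduced across most of its members. Of 28 tested pluripotency genes, 22 fell and 1, GDF3, rose, with a median log2 change of -2.34 (-2.31 on replicate 1 and -2.36 on replicate 2). NANOG read 11.99, 12, 6.63 and 6.68 (adjusted p = 3.84e-06). L1TD1 read 13.15, 13.06, 7.25 and 6.58. The deubiquitinase gene USP44 read 11.39, 11.17, 5.97 and 6.14 and fell 37.5-fold (adjusted p = 2.69e-06). The groups lay far apart for all 3, and the day 6 arrays differed by at most 1.60-fold. DPPA4, a chromatin protein of early embryos, was reduced less, 6.47-fold, at 12.69, 12.58, 10.17 and 9.71 (adjusted p = 0.000303). LIN28A, PRDM14, ZFP42, SALL4, TERT, LEFTY1, TERF1 and FGF2 also fell. None of the 28 differed 4-fold between the day 6 arrays. The 4 stem cell markers NANOG, SOX2, LIN28A and DPPA4 summed to 31300 and 30700 at day 0 and to 4940 and 4040 at day 6. POU5F1 was not analysed here, its probe sets carrying several symbols.

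Epithelial genes fell with the stem cell genes. Of 26 tested genes for epithelial adhesion and keratins, 19 fell and none rose (median log2 change -1.78). CDH1 read 13.00, 12.84, 7.46 and 7.55 (adjusted p = 3e-05), ESRP1 11.97, 11.98, 6.37 and 6.36 (adjusted p = 5.41e-06), and the vesicle protein gene MAL2 11.24, 11.23, 6.97 and 6.08 (26.1-fold, adjusted p = 0.000245). P-cadherin (CDH3) fell 19.5-fold. The day 6 arrays were nearly equal for CDH1 and ESRP1. The epithelial markers CDH1, EPCAM, KRT8 and KRT18 summed to 27600 and 25800 at day 0 and to 5100 and 3520 at day 6.

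Of 17 tested genes of neural and surface ectoderm, 10 fell and none rose (median log2 change -1.96). ZIC2, a zinc finger factor of the neural plate, read 12.56, 12.40, 7.50 and 6.52 (adjusted p = 0.00614). The homeobox gene OTX2 read 12.77, 12.67, 8.58 and 7.02 and fell 30.3-fold (adjusted p = 0.00613). STMN2, a microtubule regulator of neurons, fell 10.3-fold and the ectodermal and trophoblast factor TFAP2C 8.42-fold (adjusted p = 0.00565 and 0.000774). These genes were high in the undifferentiated cells, where ZIC2 and OTX2 are also known to be made. For ZIC2 and OTX2 replicate 2 of day 6 was the lower array, and neither overlapped day 0.

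Regulators of chromatin and RNA that belong to embryonic cells fell in part. Of 29 tested genes for DNA methylation and chromatin, 10 fell and none rose. DNMT3B, which sets new methylation, read 13.72, 13.61, 11.25 and 11.30 and fell 5.22-fold (adjusted p = 8.74e-05). HELLS, a remodelling helicase, fell 4.45-fold (adjusted p = 0.00494). TET1, which oxidises methylcytosine, fell 4.48-fold (adjusted p = 0.00225) and the methyl-CpG reader MBD2 5.05-fold (adjusted p = 0.0317). TET1 and MBD2 each had a probe set going the other way, and MBD2 lost its call without several arrays, among them either day 0 array and replicate 2 of day 6, with adjusted p from 0.0579 to 0.152. The list's calls went from 10 to 5 and 5 without replicates 1 and 2 of day 0. Of 17 genes around LIN28 and other RNA regulators of the embryo, 9 fell and 2 rose, and 7 and 7 were called without replicates 1 and 2 of day 0. MBNL2, a splicing factor of differentiated cells, read 7.85, 8.17, 11.11 and 10.63 and rose 7.26-fold (adjusted p = 0.00061). Both day 6 arrays of MBNL2 stood clear of day 0.

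Marker genes of gastrulation and of cardiac mesoderm were called 1 time in 8 and 5 times in 18, beside 23.4% of all genes tested. TBXT (Brachyury), a factor of the primitive streak, read 7.97, 7.92, 7.65 and 7.97 (adjusted p = 0.562), its day 6 arrays overlapping day 0. EOMES, a factor of streak and endoderm, read 8.43, 8.27, 6.56 and 6.24 and fell 3.86-fold (adjusted p = 0.000246), the only call among 8 streak genes. Of 18 cardiac and lateral mesoderm genes, 4 rose, among them MEF2C, GATA6 (5.35-fold) and WT1 (2.58-fold), and cardiac actin (ACTC1) fell 8.14-fold. The 3 cardiac muscle markers measured summed to 359 and 379 at day 0 and 460 and 291 at day 6. Of 22 endoderm and yolk sac genes, SOX17, HHEX and GATA6 rose and FOXA3 fell (3.54-fold). SOX17, HHEX and GATA6 are made by endothelial or mesodermal cells as well as by endoderm. Of 10 trophoblast and amnion genes, GATA3 rose and TFAP2C fell.

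Of 28 tested genes of smooth muscle, stroma and fibroblasts, 11 fell and 1 rose, and 21 of the 28 were lower on replicate 2 than on replicate 1 of day 6 (median log2 change -0.83, which was -0.46 on replicate 1 and -1.12 on replicate 2). COL1A1, a chain of type I collagen, read 13.81, 13.82, 11.61 and 10.29 and fell 7.28-fold (adjusted p = 0.0239), with 1 of its 5 probe sets going the other way. COL6A3 read 12.71, 12.59, 10.58 and 8.64 (8.24-fold, adjusted p = 0.0445). TAGLN, an actin-binding protein of smooth muscle, read 10.97, 11.12, 8.97 and 6.73 (9.16-fold, adjusted p = 0.0238), and POSTN fell 8.40-fold (adjusted p = 0.0261). Replicate 2 was the lower day 6 array for each of the 4. Without replicates 1 and 2 of day 0 the calls of this list went from 12 to 2 and 2, and those of the cardiac list from 5 to 2 and 2. All of ACTC1, WT1, FOXA3, TAGLN, POSTN, COL6A3 and COL1A1 lost their calls without a day 0 array, and over all single arrays left out their lost calls had adjusted p from 0.0513 to 0.199. Without replicate 2 of day 6 the calls of ACTC1, TAGLN, POSTN, COL6A3 and COL1A1 were lost, and without replicate 1 that of WT1. The 6 fibroblast and smooth muscle markers summed to 24500 and 24100 at day 0, 14300 on replicate 1 and 6150 on replicate 2 of day 6. Of the 6, only COL1A1 and TAGLN were called lower and none was called higher. COL3A1 read 12.38, 12.21, 12.91 and 12.02 and DCN 7.04, 7.06, 8.16 and 6.27. Both of these and LUM stood above day 0 on replicate 1 and below it on replicate 2. The part of the 6 markers in the list's change was not tested.

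Of 18 tested basement membrane genes, 3 rose and LAMA1 fell, a share near the 23.4% called over all genes. COL15A1, a collagen of vessel walls, read 5.83, 5.92, 8.55 and 9.42 and rose 8.63-fold (adjusted p = 0.00625). The nidogen genes NID1 and NID2, whose proteins link laminin to collagen, rose 5.78-fold and 4.83-fold (adjusted p = 0.00264 and 0.00896). LAMA1, the laminin chain of early epithelia, read 10.41, 10.44, 9.47 and 8.00 and fell 3.23-fold (adjusted p = 0.0483). Of 20 integrin genes, ITGA5, ITGA8, ITGA9 and ITGA10 rose and ITGA6, ITGA7 and ITGB8 fell. ITGA9 read 7.81, 7.73, 11.97 and 12.78 and rose 24.4-fold (adjusted p = 0.000531). ITGA8 rose 15.6-fold, ITGB8 fell 5.37-fold, and ITGA6, a laminin receptor of stem cells, read 11.53, 11.54, 8.88 and 9.43 and fell 5.21-fold (adjusted p = 0.00938). COL15A1, NID2, LAMA1 and ITGA6 lost their calls without a day 0 array, and LAMA1 also without replicate 2 of day 6 (adjusted p 0.0512 to 0.199 over these losses and those without a day 4 or day 8 array). The basement membrane calls went from 4 to 1 and 2 without replicates 1 and 2 of day 0 and the integrin calls from 7 to 4 and 4.

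HOX genes, which give position along the body axis, rose where called. Of 30 listed, 19 had a probe set of 1 gene symbol and 13 passed the filter and were tested. Of these 13, 6 rose and none fell. HOXB6 and HOXB7 were below the median on both day 0 arrays. They passed the filter through sorted arrays and had less room to fall than to rise, so the lack of falls is partly set by the filter. HOXB6 read 6.24, 6.27, 8.77 and 9.38 (7.07-fold, adjusted p = 0.00349) and HOXB7 6.52, 6.74, 8.89 and 9.63 (6.20-fold, adjusted p = 0.00365). HOXB3 rose 3.76-fold and HOXB2 2.48-fold (adjusted p = 0.00679 and 0.00273). Both day 6 arrays lay above both day 0 arrays for all 4. Without replicates 1 and 2 of day 0 the calls went from 6 to 3 and 3, and HOXB3 lost its call at 0.0521 and 0.0605.

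WNT pathway genes moved in both directions. Of 30 tested, 11 fell and 4 (WNT11, FZD4, LEF1 and SOST) rose. SOST, known as the bone protein sclerostin, read 5.61, 5.87, 12.76 and 11.26 (adjusted p = 0.000537), with replicate 1 the higher day 6 array. The receptor gene FZD5 read 13.14, 13.10, 9.85 and 8.95 and fell 13.2-fold (adjusted p = 0.000568). The secreted WNT binder SFRP2 fell 13.1-fold and the receptor gene FZD7 5.22-fold (adjusted p = 0.0371 and 0.0196). Among the fallen were the target genes AXIN2 and DKK1, the ligand WNT5A and the agonist RSPO3. Calls went from 15 to 7 and 8 without replicates 1 and 2 of day 0. SFRP2 and FZD7 lost theirs without either day 0 array and without replicate 2 of day 6 (adjusted p 0.0509 to 0.164).

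In BMP, TGF-beta and NODAL signalling, 6 of 33 genes rose and 9 fell. ACVRL1, the BMP receptor of endothelium, read 6.87, 6.81, 10.20 and 10.93 and rose 13.2-fold (adjusted p = 0.000495). The co-receptor gene ENG, the receptor genes BMPR2 and TGFBR2, the inhibitor gene SMAD6 and BMPER, a secreted BMP binder (8.24-fold, adjusted p = 0.00284), rose too. The BMP antagonist gene GREM1 read 11.07, 11.05, 7.38 and 5.66 and fell 23.3-fold (adjusted p = 0.0049). ID1, a direct target of BMP signals, read 12.27, 12.19, 8.62 and 8.96 and fell 10.8-fold (adjusted p = 0.0114). ID1 lost its call without either day 0 array, at 0.0709 and 0.0776. Calls went from 15 to 7 and 8 without replicates 1 and 2 of day 0.

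Of 26 genes of FGF, IGF and PDGF signalling, 7 rose and 5 fell, and 6 and 5 in all were called without replicates 1 and 2 of day 0. FGF2, the growth factor that holds stem cells undifferentiated, read 9.95, 9.85, 7.32 and 7.17 and fell 6.29-fold (adjusted p = 0.000172). The receptor gene FGFR2 fell 6.62-fold (adjusted p = 0.0169), a call lost without either day 0 array at 0.0959 and 0.0991. IGFBP4, which binds insulin-like growth factors, rose 6.58-fold and the ligand gene PDGFD 4.97-fold (adjusted p = 0.000612 and 0.000401). Both had day 6 arrays close to each other. Of 14 genes of retinoic acid metabolism, 4 fell and none rose, and 2 and 2 were called without replicates 1 and 2 of day 0. CYP26A1 read 12.64, 12.53, 6.69 and 6.87 (adjusted p = 0.000141). The binding protein gene CRABP2 fell 3.78-fold, the synthesis gene ALDH1A3 2.70-fold and RDH10, which makes retinal, 1.82-fold. CRABP2 and RDH10 lost their calls without either day 0 array and without replicate 2 of day 6 (adjusted p 0.065 to 0.162).

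The cell cycle lists gave few calls against day 0 and large differences between the day 6 arrays, described further on. Of 38 mitosis genes, 0 were called by limma, with a median log2 change of -0.45, and at an unadjusted p under 0.05 none was higher and 2 were lower. Of 37 genes for DNA replication, 5 fell, a share near the 13.6% lower over all genes tested. GINS4, a part of the replication helicase, read 9.34, 9.37, 7.47 and 7.13 and fell 4.16-fold (adjusted p = 0.000718). The helicase subunit gene MCM4 fell 2.69-fold, the licensing factor gene CDT1 2.26-fold and RPA2, which coats single strands, 1.80-fold. Among 28 genes of G1 control and the p53 response, 6 rose and 4 fell. PMAIP1, which encodes the death protein NOXA, read 12.98, 12.90, 7.95 and 7.43 and fell 38.1-fold (adjusted p = 0.00015). RB1, the retinoblastoma brake on the cycle, read 10.20, 10.22, 12.43 and 12.02 and rose 4.04-fold (adjusted p = 0.000535). The kinase gene PLK2 rose 5.16-fold and the stress gene GADD45B fell 4.64-fold. Without replicates 1 and 2 of day 0 the calls went from 5 to 1 and 1 for replication and from 10 to 5 and 3 for G1 control. MCM4, CDT1, RPA2, PLK2 and GADD45B lost their calls without a day 0 array, and CDT1 and RPA2 also without replicate 2 of day 6 (adjusted p 0.0529 to 0.24 over all single arrays left out).

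Called changes in energy metabolism were small. Of 37 genes of oxidative phosphorylation, 9 fell and none rose, with a median log2 change of -0.31. The share called was near the 23.4% over all genes tested, of which 13.6% were lower. NDUFV1, a subunit of complex I, read 11.77, 11.74, 10.14 and 10.64 and fell 2.57-fold (adjusted p = 0.00929). COX6A1, COX8A and SDHC fell 2.09-fold, 1.99-fold and 1.98-fold. Of 22 glycolysis genes, SLC2A3, a neuronal and embryonic glucose transporter (1.95-fold, adjusted p = 0.0017), and hexokinase HK1 (1.57-fold) rose and PFKM fell (1.84-fold). Of 23 genes for cholesterol and fatty acid synthesis, ACACA and PMVK fell (1.84-fold and 1.77-fold). The glycolysis and lipid synthesis lists had smaller shares called than all genes tested. These calls were fragile: without replicates 1 and 2 of day 0, oxidative phosphorylation went from 9 to 0 and 0, glycolysis from 3 to 1 and 1, and lipid synthesis from 2 to 0 and 0. All the genes named here but SLC2A3 lost their calls without a day 0 array, and COX6A1, COX8A, SDHC, HK1 and ACACA without replicate 2 of day 6. Their lost calls had adjusted p from 0.0508 to 0.22.

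Of 23 tested genes that supply amino acids, 10 fell and 1 rose, with a median log2 change of -1.02. SLC7A3, a transporter of basic amino acids, read 11.49, 11.57, 8.16 and 6.60 and fell 17.8-fold (adjusted p = 0.00477). SLC7A5, which carries large neutral amino acids, fell 7.21-fold (adjusted p = 0.00339), asparagine synthetase (ASNS) 5.62-fold and PHGDH, which opens serine synthesis, 3.50-fold (adjusted p = 0.000748). PHGDH read 12.22, 12.15, 10.42 and 10.34, the day 6 arrays close together. Of 22 genes for haem and iron, 6 fell and 1 rose. SLC40A1, the iron exporter ferroportin, read 7.66, 7.93, 10.22 and 9.57 and rose 4.29-fold (adjusted p = 0.00148), while the iron reductase gene STEAP3 fell 2.99-fold and BLVRA 2.20-fold. Of 35 ribosomal protein genes, 7 fell, among them RPS9 (3-fold), RPL11 (2.53-fold) and RPS24 (2.02-fold), and RPL38 rose 2.70-fold with 1 of its 3 probe sets going the other way. The share of ribosomal protein genes called was near the 23.4% over all genes tested. Calls went from 11 to 5 and 6 for amino acid supply, from 7 to 2 and 2 for haem and iron and from 8 to 1 and 1 for ribosomal proteins without replicates 1 and 2 of day 0. ASNS, BLVRA, TFRC, RPS9, RPL38, RPL11 and RPS24 were among the calls lost then, RPL38 also without replicate 1 of day 6 and ASNS, BLVRA and TFRC without replicate 2 (adjusted p 0.0504 to 0.178).

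Immediate early genes respond within minutes to growth factors and to dissociation of cells. Of 21 tested, 8 fell and 1 rose. CCN2, a matrix protein induced by YAP, read 11.50, 11.35, 8.26 and 7.22 and fell 12.9-fold (adjusted p = 0.000761). ATF3 fell 9.69-fold, CCN1 7.53-fold and FOS 7.44-fold (adjusted p = 0.000734, 0.00752 and 0.00252). Neither day 6 array reached the day 0 levels. Of 25 genes of the interferon response and MHC class I, 6 fell and 3 rose. PSMB8, an inducible proteasome subunit, read 9.42, 9.51, 6.42 and 6.14 and fell 9.07-fold (adjusted p = 2.32e-05), and its partner PSMB9 fell 5.57-fold. IFITM1, an antiviral membrane protein of embryonic cells, fell 6.94-fold, while IFIT3 rose 4.55-fold and HLA-E and IRF7 rose. Of 20 hypoxia genes, 3 rose, among them NDRG1 (3.70-fold) and the oxygen sensor gene EGLN1 (3.44-fold), and 3 fell, among them the crosslinking enzyme gene LOX (7.02-fold) and STC2 (4.13-fold). Calls went from 9 to 5 and 5 for immediate early genes and from 6 to 2 and 2 for hypoxia without replicates 1 and 2 of day 0. CCN1, IFIT3, LOX and STC2 lost their calls then (adjusted p 0.0535 to 0.0859).

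**Figure D2:**
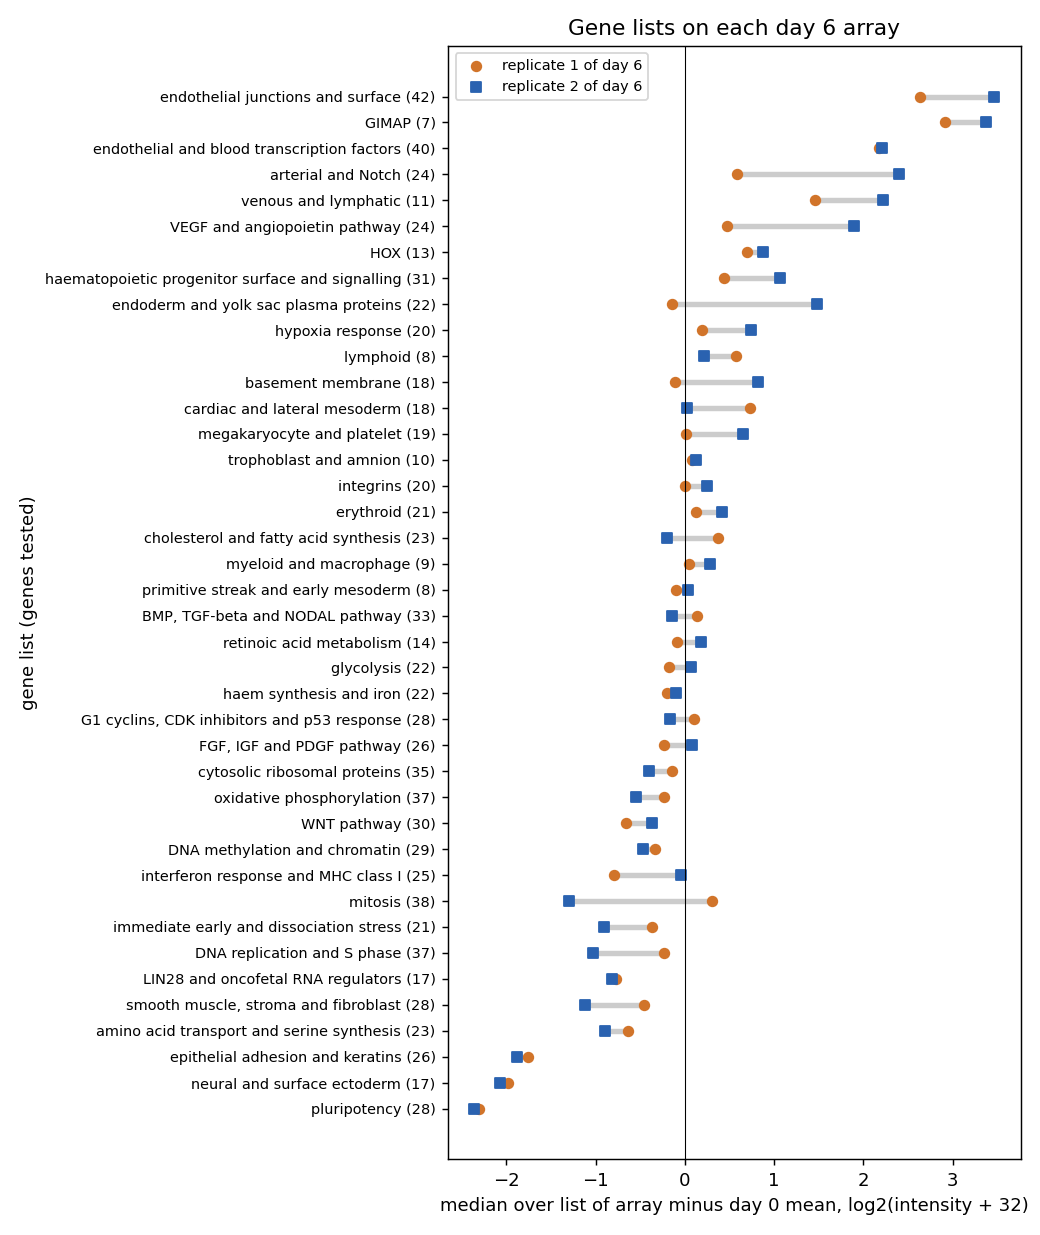
Median change of each gene list from the day 0 mean on replicate 1 (orange circles) and replicate 2 (blue squares) of day 6, in log2(intensity + 32), with the number of genes tested in brackets. Lists run from endothelial junctions at the top (2.63 and 3.47) to pluripotency at the bottom (-2.31 and -2.36), with GIMAP higher than the former on replicate 1 (2.91), and the symbols lie farthest apart for arterial and Notch genes (0.58 and 2.40), endoderm and yolk sac plasma proteins (-0.15 and 1.48) and mitosis (0.30 and -1.30).

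Day 6 was not set apart from the other sorted days by the same fit. Against the mean of day 4 and day 8, 0 of 13636 genes (0%) were called by limma at day 6, 435 had an unadjusted p under 0.05, and the smallest adjusted p was 0.999. Without replicate 2 of day 6, 1 gene was called higher. This does not show that the sorted days were alike, since the day 6 arrays differed widely from each other.

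Over the 13636 genes tested the arrays of day 6 were the least alike of any group. Their correlation across genes was 0.937, against 0.997 for the day 0 pair, 0.953 for day 4 and 0.98 for day 8. This is a description across genes, which are not independent. A gap of at least 4-fold, 2 log2 units, between the day 6 arrays was found for 148 genes (1.09%). Replicate 2 was the higher for 91 of them (0.667%) and replicate 1 for 57 (0.418%). The day 0 pair had such a gap for 0 genes, the day 4 pair for 78 and the day 8 pair for 25. Across all genes tested, replicate 1 of day 6 correlated most highly with replicate 1 of day 4 (0.976), and replicate 2 with replicate 2 of day 8 (0.99). The source names of both day 8 arrays also give day 4, against their titles, descriptions and stages. With 1 pair of arrays there is no test of a gap, and the values that follow describe these arrays.

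Fitted 1 array at a time against day 0, replicate 1 gave 1252 genes higher and 1506 lower, and replicate 2 gave 1428 higher and 2049 lower. Called on each alone were 825 higher and 1158 lower. Higher only with replicate 1 were 427 and only with replicate 2, 603. Lower only with replicate 1 were 348 and only with replicate 2, 891. These fits give the single day 6 array the spread of the other groups. Called in opposite directions were 6 genes: GTSE1, PPFIBP2 and TAC1 higher on replicate 1 and lower on replicate 2, and NPAS2, PCBP1-AS1 and TENT5C the reverse. GTSE1, a spindle protein of G2 cells, read 9.02, 9.05, 10.13 and 8.03. TENT5C, a poly(A) polymerase of red and plasma cells, read 7.51, 7.63, 6.44 and 8.36.

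**Figure D3:**
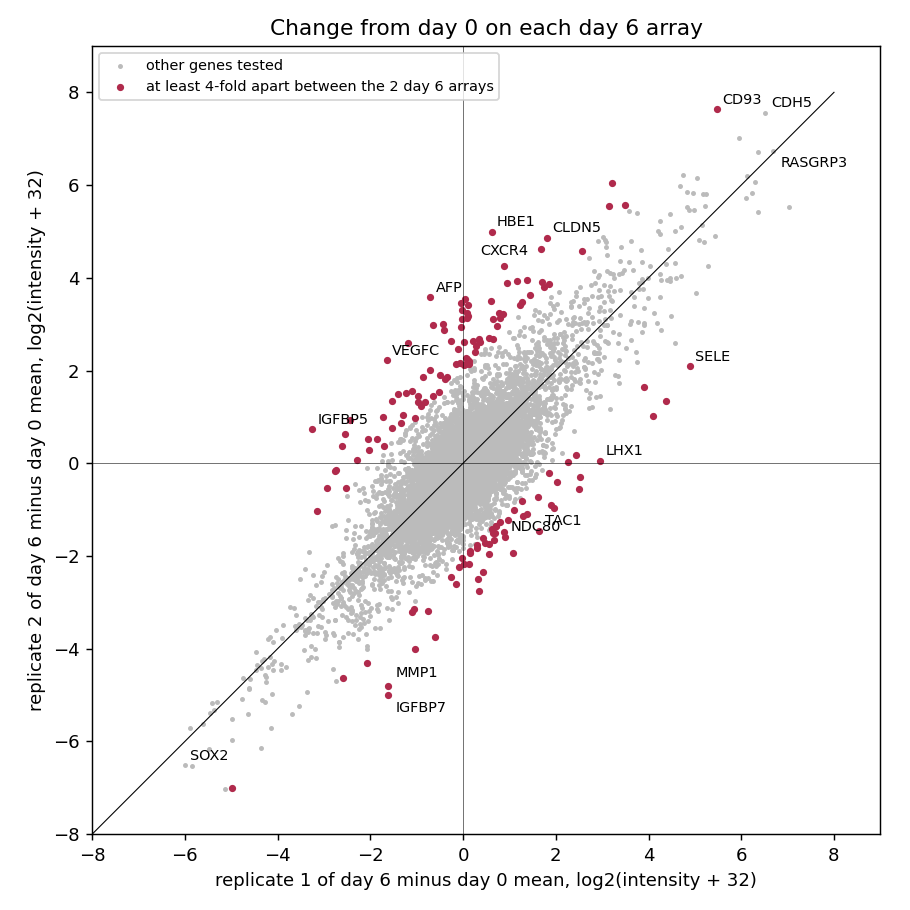
Change of each gene from the day 0 mean on replicate 1 (horizontal) and replicate 2 (vertical) of day 6, in log2(intensity + 32), for the 13636 genes tested, with the diagonal marking equal change. The 148 genes at least 4-fold apart are red, 91 above the diagonal and 57 below it, while CDH5, RASGRP3 and SOX2 lie at the ends close to the diagonal.

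The widest gap toward replicate 2 was that of HBE1, 20.8-fold, followed by the fetal serum protein gene AFP, 19.6-fold, at 8.19, 8.37, 7.57 and 11.86. IGFBP5, which binds insulin-like growth factors, differed 15.9-fold, VEGFC 14.6-fold and the lipoprotein gene APOA2 13.7-fold. The others among the 10 widest were PRDM16, a zinc finger factor also made in arterial endothelium (12.4-fold), the potassium channel gene KCNK17 (11.3-fold), CASP4LP (11.3-fold), the glycosyltransferase gene GALNT18 (10.8-fold) and WDR72 (10.4-fold). None of the 10 was called against day 0, but the gap by which they were chosen also widens the spread in that test and so works against a call. IGFBP5 read 10.43, 10.27, 7.08 and 11.08, so that it was far below day 0 on replicate 1 and above it on replicate 2. PRDM16 read 7.36, 7.20, 6.62 and 10.25 and KCNK17 7.83, 7.30, 7.61 and 11.11.

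The widest gap toward replicate 1 was that of IGFBP7, a secreted protein of vessels and stroma, 10.4-fold, at 12.27, 12.23, 10.63 and 7.25. The collagenase gene MMP1 differed 9.05-fold, at 12.52, 12.41, 10.85 and 7.67, and PRRX1, a homeobox factor of mesenchyme, 8.79-fold. For these 3 both day 6 arrays lay below day 0 and replicate 2 lay lowest. The peptide gene TAC1 differed 8.62-fold, the immediate early gene EGR3 8.58-fold, the steroid enzyme gene AKR1C3 8.48-fold and PLPPR5 8.33-fold. The leukocyte activation marker CD69 differed 8.15-fold, the kinetochore gene SPC25 8.11-fold and the adhesion gene ALCAM 7.84-fold. TAC1 read 7.15, 7.41, 8.93 and 5.82. AKR1C3 read 7, 6.87, 11.03 and 7.95 and CD69 5.96, 6.20, 10.45 and 7.42, above day 0 on both day 6 arrays. LHX1, a mesoderm factor, read 6.91, 6.76, 9.79 and 6.89, and was above 7.28 on no other array of the series.

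**Figure D4:**
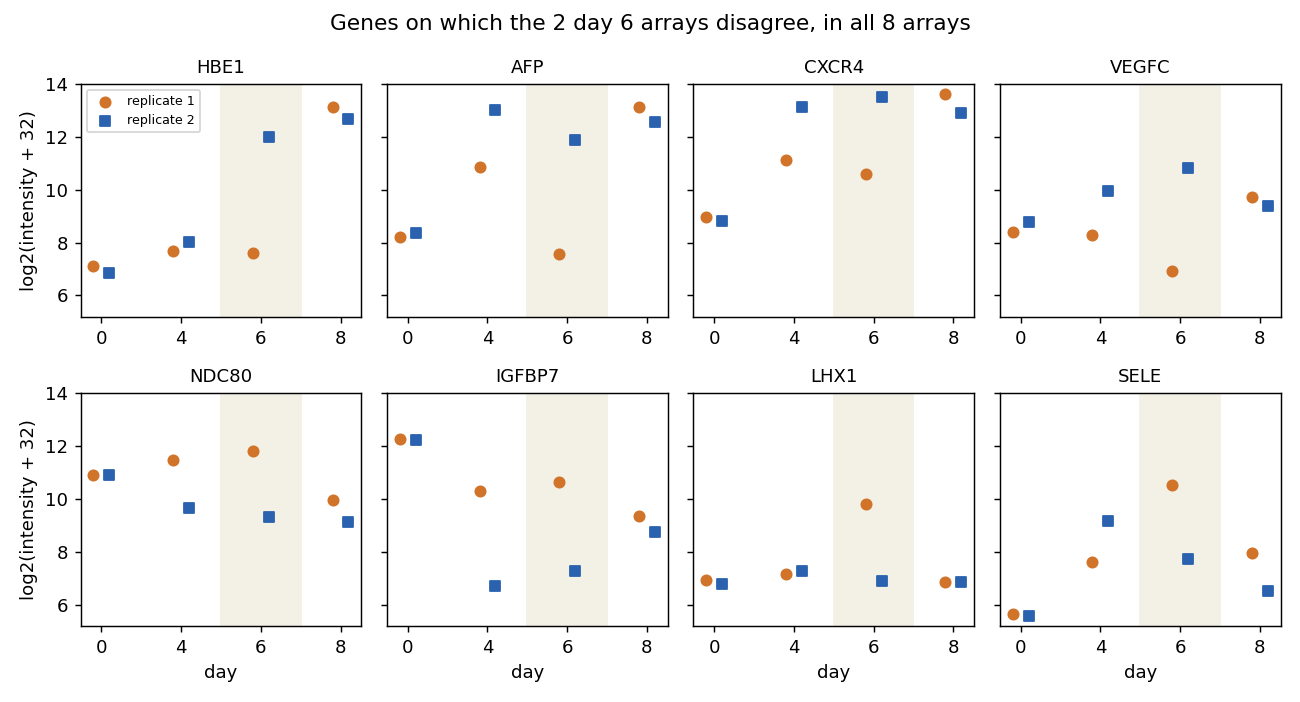
Levels of 8 genes, as log2(intensity + 32), on all 8 arrays by day, with replicate 1 as orange circles, replicate 2 as blue squares and day 6 shaded. HBE1, AFP, CXCR4 and VEGFC (top) are higher on replicate 2 at day 6, NDC80, IGFBP7, LHX1 and SELE (bottom) on replicate 1, and LHX1 stands out on replicate 1 of day 6 only (9.79).

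At least 2-fold above both day 0 arrays on replicate 2 and at least 2-fold below both on replicate 1 were 7 genes, APH1A, CPXM1, PKIB, AHNAK, LAMA4, APOA2 and VEGFC. The laminin gene LAMA4, of vessel basement membrane, read 8.56, 8.77, 7.27 and 10.17, and AHNAK 9.69, 9.76, 8.18 and 11.07. The opposite pattern was found for 4 genes, TAC1, SPC25, TWIST1 and PPFIBP2. TWIST1, a factor of mesenchyme, read 8.89, 9.02, 10.33 and 7.86. For these genes the day 6 mean hides arrays on either side of day 0.

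Many of the gaps were found at day 4 too. Of the 148 genes, 142 had the same sign of gap between the day 4 arrays and 108 between the day 8 arrays. For 94 the day 4 arrays were also at least 2-fold apart in the same direction. Over all 13636 genes tested the day 4 arrays were at least 2-fold apart for 909, in either direction. Deviations of the replicates over all genes tested correlated at 0.6 between day 4 and day 6 and at 0.41 between day 6 and day 8. The share of all genes with the same sign of gap was not counted. The 3′ to 5′ ratio of ACTB was higher on replicate 1 at day 6 (31.0 and 16.0) and at day 4 (19.0 and 9.18) and lower on it at day 8 (9.91 and 15.1), and its part in the gaps was not tested. IGFBP7 read 10.29 and 6.71 on replicates 1 and 2 of day 4, and CXCR4 11.11 and 13.10. AFP read 10.84 and 12.99 at day 4, above day 0 on both arrays, so that replicate 1 of day 6 (7.57) was its lowest array in the series. HBE1 differed little at day 4 (7.68 and 8.03) and was high on both arrays of day 8 (13.13 and 12.66).

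The gap by which the 148 genes were chosen widens the spread in the test against day 0 and so works against a call. Beside 23.4% of all genes tested, 16 of the 148 were called against day 0. They were A2M, CD34, CD93, CLDN5, EFNA1, FLT4, GJA5, MFNG, NOTCH4, PLVAP and PRND, higher on replicate 2 and above day 0, RHOB and SELE, higher on replicate 1 and above day 0, and TAGLN, NELL2 and the probe set listed as MIR302B, lower on replicate 2 and below day 0. In a list were 44 of the 148.

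Of all genes tested, 7696 were higher on replicate 1 of day 6 and 5938 on replicate 2. By list, the gap ran 1 way for mitosis. It ran the opposite way, but was small, for all 9 tested myeloid and macrophage genes (median gap 0.39). Only 1 of these 9 was at least 2-fold apart, and their median gap at day 4 was -0.06. All 38 mitosis genes were higher on replicate 1, with a median gap of -1.52 (replicate 2 minus replicate 1), and 8 were at least 4-fold higher. Their median change from day 0 was 0.30 on replicate 1 and -1.30 on replicate 2. NDC80, which ties chromosomes to the spindle, read 10.90, 10.88, 11.81 and 9.31, the condensin gene NCAPG 11.09, 11.16, 11.81 and 9.48, and ANLN, of the cleavage furrow, 11.26, 11.19, 11.79 and 9.49. Each lay above day 0 on replicate 1 and below it on replicate 2. With replicate 2 alone 10 of the 38 were lower than at day 0, with replicate 1 alone 0 were called. The day 4 arrays showed a median gap of -1.12 and the day 8 arrays -0.37. Of the 37 replication genes 36 were higher on replicate 1, with a median gap of -0.75, and with replicate 2 alone 11 were lower and with replicate 1 alone 2.

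Genes of cholesterol and fatty acid synthesis leaned the same way, 19 of 23 being higher on replicate 1 (median gap -0.78). HMGCS1, an early enzyme of cholesterol synthesis, read 10.65, 10.52, 12.20 and 9.87 and its regulator INSIG1 10.32, 10.39, 12.22 and 10.15. Both were above day 0 on replicate 1 and below it on replicate 2. In smooth muscle and stroma the median gap was -0.51, and LUM, a collagen-binding proteoglycan, read 10.35, 10.29, 10.64 and 7.81.

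Toward replicate 2 leaned basement membrane, with 15 of 18 genes higher there (median gap 1.14), and endoderm and yolk sac plasma proteins, with 17 of 22 (median gap 0.73). HSPG2, the perlecan gene, read 9.08, 8.82, 9.31 and 11.57. Of the endoderm genes, APOA2 read 8.32, 8.32, 7.14 and 10.91 and AHSG, a liver plasma protein, 6.12, 6.27, 6.28 and 9.33. On replicate 1 of day 6 AFP and APOA2 were below day 0. The 4 yolk sac endoderm markers AFP, APOA2, TTR and FGB summed to 821 and 853 at day 0, 432 on replicate 1 and 6300 on replicate 2 of day 6, and at day 4 to 2770 and 20600. Their part in the other gaps was not tested. Single members of further lists also differed 4-fold. IGFBP3 differed 9.73-fold, INPP5D 4.69-fold, PDGFA 4.60-fold, FZD6 4.23-fold and SLC1A4 4.08-fold toward replicate 2, and the stem cell receptor gene LGR5 7.10-fold toward replicate 1. Pluripotency and epithelial genes, which fell most widely, had median gaps of -0.15 and -0.02, against -0.07 over all genes tested.

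**Figure D5:**
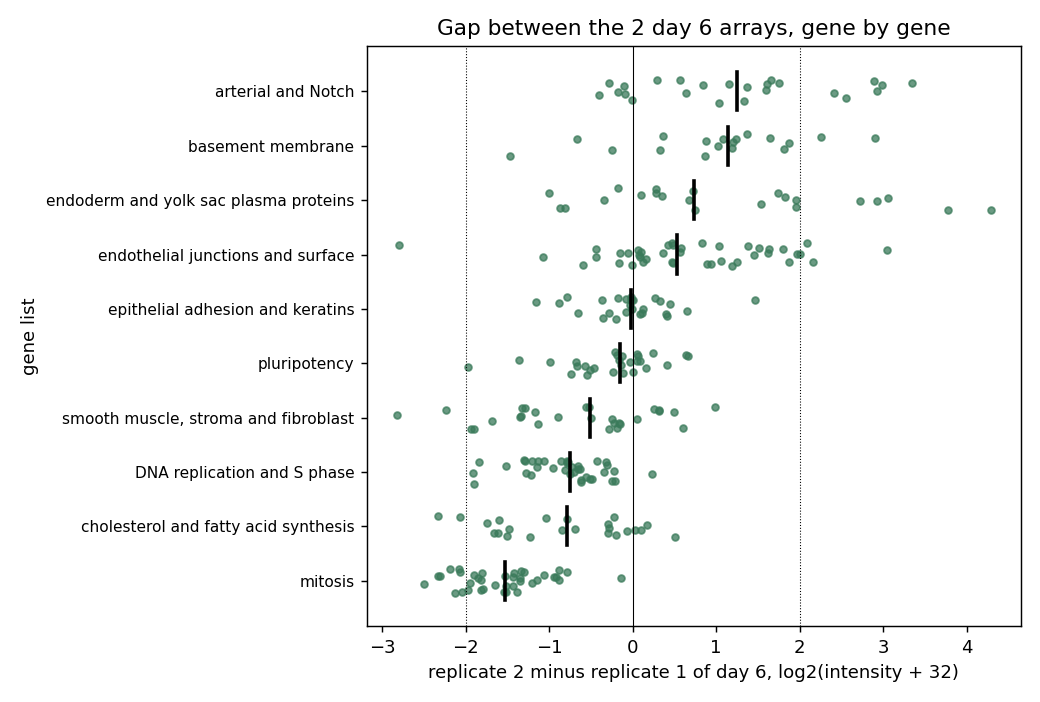
Gap between the day 6 arrays, replicate 2 minus replicate 1 in log2(intensity + 32), for each tested gene of 10 lists, with bars at the medians and dotted lines at 4-fold. Mitosis lies wholly to the left (median -1.52), arterial and Notch genes mostly to the right (median 1.24), and pluripotency about 0 (median -0.15).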

How the data were processed

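The authors deposited linear intensities, 1 for each probe set on each array. MAS5 had made them, per the submitters' processing notes, and its version is not given in the sources used here. Total RNA had been taken up in Trizol and labelled as biotinylated cRNA, per the labels' protocols. No scaling was added. Intensities were transformed as log2(intensity + 32), and detection calls were not used. The number of arrays limits the precision.

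Of 54675 probe sets, 41091 carried 1 gene symbol, 1801 several, 11721 none, and 62 were controls. Gene IDs were found in a RefSeq table for 41037, which changed 0 symbols. Each gene was read from its probe set of highest mean over the 8 arrays, one ending in _x_at being used where there was no other. No genome build is named for the values, so genes carry no coordinates.

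Groups were tested with limma 3.58.1 (R 4.3.3) on all 8 arrays, with a term per group, eBayes with trend (4 residual and 2.84 prior degrees of freedom) and two-sided p-values, adjusted by Benjamini-Hochberg over 13636 genes. The scripts were tested on simulated data. Text files and figures were made in Python 3.11.15.

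The comparison and the 40 gene lists (1131 memberships, 1040 distinct genes, 846 tested) were chosen with earlier results of these data known. Named are the 12 largest rises and falls, up to 4 called members a list, the 10 widest gaps between the day 6 arrays each way, up to 3 members a list at least 4-fold apart, and KDR, PECAM1, CDH5, CD34, NANOG, SOX2, TBXT, HBE1 and ALAS2, 188 genes in all. Other genes in the text were named after their values were seen. Alternatives were the offset, the filter, the scaling, the choice of probe set, the trend, the arrays fitted, a minimum change, a replicate block and each array left out.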

Additional observations from a re-analysis of the deposited data

Results flagged for a closer look

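Data outside the main measurement also held differences. Among 4298 probe sets with no gene symbol that passed the filter, 345 were higher and 286 lower at day 6 by the same limma fit with Benjamini-Hochberg adjustment, 14.7% in all. Probe sets with 1 symbol gave 19.2% (1983 higher and 2801 lower of 24878). These unnamed probe sets entered no gene or list of the report.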

How the results depend on the processing

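Against day 0 the counts of genes higher (1328), genes lower (1859) and distinct list members called (329) stayed within 1.5 times under both other offsets, both other filters, quantile normalization, median centring, the mean of a gene's probe sets, eBayes without trend and the 4 arrays of day 0 and day 6 alone (1134 higher, 1583 lower). With a minimum log2 change of 1 in the test they were 250, 339 and 142. Leaving out 1 array in turn gave 463 to 1551 genes higher, 739 to 2049 lower and 187 to 382 list members, the lowest counts each without a day 0 array. An alternative chosen after seeing the data, which dropped replicate 1 from both day 4 and day 6, gave 2486, 3612 and 542. There TAC1 (-1.46, adjusted p = 0.00564), HMGCS1 (-0.72, 0.0202), PLPPR5 (-0.55, 0.0259) and IGFBP5 (0.73, 0.0369) reversed into calls, as TAC1 did without replicate 1 of day 6 (-1.46, 0.0171, against 1.65 without replicate 2). The cause was not tested. Against the other sorted days leaving out 1 array gave 0 to 1 genes higher and 0 lower.

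Genes at least 4-fold apart at day 6 numbered 91 toward replicate 2 and 57 toward replicate 1. An offset of 1 gave 98 toward replicate 1, the larger offset gave 49 and 23, and the mean of a gene's probe sets 41 and 33, so that the count depends on the offset and on the probe set.

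Replicate numbers did not pair the day 0 and day 6 arrays, whose deviations from their group means correlated at 0.02, while those of the sorted days correlated at 0.6 (day 4 and day 6), 0.41 (day 6 and day 8) and 0.19 (day 4 and day 8), and those of day 0 with day 4 and day 8 at -0.02 and 0.02. With a replicate block 1617 genes were higher and 2256 lower, 3167 of them among the 3187 called without it, and 389 list members were called. Of the 144 named genes called, 51 lost their call without a day 0 array, 27 without a day 6 array, and 93 under no alternative other than the minimum change.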
